A study of Mus musculus with 62 samples.

Results

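The 9 genes of the complement system described here were followed through RNA-seq of mouse brain CD11b+ cells: C1qa, C1qb, C1qc, C3, C4b, C3ar1, C5ar1, Cfb and Itgam. They were taken by symbol as a group of complement components and receptors, and they are 9 of the 53801 genes in the deposited count matrix. All 9 were among the 19881 genes that passed the filter on low counts.

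The libraries came from CD11b+ brain cells, which the series title calls microglia, of mice that were wild type (WT), lacked Nlrp3 (NLRP3, the sensor of an inflammasome), carried the APPPS1 transgenes of an Alzheimer's disease model (APPPS1), or lacked Nlrp3 and carried the transgenes (APPPS1_NLRP3). Mice were 4, 6 or 12 months old, and a further set at 12 months has Mxo4 in its titles, a tag whose meaning the labels leave unstated. These 16 groups held 3 to 5 usable libraries each: WT had 4, 5, 3 and 3 at 4, 6 and 12 months and in the tagged set, NLRP3 had 4, 4, 4 and 3, APPPS1 had 3, 3, 5 and 4, and APPPS1_NLRP3 had 4, 5, 4 and 3. The promoter of the transgenes, the strain background and the number of animals behind a library are not given in the sources used here, so the p-values speak of the spread among these libraries, part of which may be technical.

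Complement is a cascade of proteins that tags targets for uptake by phagocytes. The classical branch starts when C1q, built from the A, B and C chains, binds its target, after which C4 and C2 are cleaved and cleave C3 in turn. Factor B, from Cfb, feeds the alternative branch. C3 fragments on a target are bound by complement receptor 3, whose alpha chain CD11b is encoded by Itgam, and the released peptides C3a and C5a signal through C3aR and C5aR1. In brain, microglia are the main makers of C1q, astrocytes are known for C4 and can make C3, and C1q and C3 are known for tagging synapses that microglia remove. Since CD11b was the protein used to select the cells, the level of Itgam RNA cannot be told apart from the selection. It is not taken as a finding.

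Total counts lay between 1394435 and 27604393 per library, with a median of 18438698. APPPS1_6m replicate 21, with a total far under the minimum of 100000 counts, was left out of every fit and level, which leaves 3 libraries in that group. Nlrp3 lay at 57.9 to 262 CPM (counts relative to the library total, scaled by the TMM method) in 30 libraries of mice with the gene and at 0 to 2.17 CPM in the 31 from mice lacking it. The 10 microglial markers summed to 35800 to 57500 CPM, against 55 to 927 CPM for 7 astrocyte markers and 16.7 to 2690 CPM for 9 neutrophil markers. Choroid plexus markers (5 genes) reached more, at 112 to 4990 CPM. Endothelial markers (7 genes) summed to 94.5 to 1130 CPM and border-associated macrophage markers (7 genes) to 289 to 1460 CPM. At 6 months choroid plexus markers held 1690 to 4990 CPM in NLRP3_6m and 326 to 4750 CPM in APPPS1_NLRP3_6m. Their part in the differences at that age was not tested. Sex, read from Xist and Y-linked genes, was female in all libraries at 4 months and in WT_12m and APPPS1_12m, and male in NLRP3_12m and APPPS1_NLRP3_12m, so the Nlrp3 comparison at 12 months without the tag cannot be told apart from sex. WT_6m and APPPS1_6m were all female, whereas NLRP3_6m had 3 females and 1 male and APPPS1_NLRP3_6m 2 females and 3 males. The Nlrp3 comparisons at 6 months, and the transgene comparison without Nlrp3 at that age, are therefore unbalanced in sex. The library labelled APPPS1_12m_Mxo4 replicate 56 stood apart from its group, with Itgax, a gene of activated microglia, at 10.5 CPM, where the untagged APPPS1_12m libraries held 90.2 to 270 CPM and the tagged WT libraries 17.1 to 32.5 CPM. Named differences of the tagged APPPS1 group are given with and without it where it moves the call or the value. In bulk RNA, fewer cells of a type and less RNA per cell cannot be told apart.

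The 9 genes differed widely in level. Per length of exon, the C1q chains stood highest, with median RPKM (CPM per kilobase of exon) of 3131 for C1qb, 2064 for C1qa and 1353 for C1qc over 61 libraries. C3ar1 followed at 138.5 RPKM, Itgam at 84.13 RPKM and C5ar1 at 70.07 RPKM. The other 3 components were low, with medians of 6.201 RPKM for C4b, 0.8408 RPKM for C3 and 0.08298 RPKM for Cfb. The 3 C1q genes together took between 0.551% and 1.33% of all counts of a library (median 0.835%). The level of C4b rests on reads that could in part be shared with its paralog C4a, which held at most 11 counts in a library, and the exons of Cfb and Itgam overlap the annotated genes Gm20547 (79.5% of Cfb exon bases) and Gm49368 (68.7% of Itgam exon bases). How such reads were counted is not given in the sources used here, so the levels of these 3 genes are uncertain to that extent.

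The 3 C1q genes lie next to each other on chromosome 4 of GRCm38, all on the minus strand: C1qb (ENSMUSG00000036905) from 136880129 to 136886187, C1qc (ENSMUSG00000036896) from 136889804 to 136893065 and C1qa (ENSMUSG00000036887) from 136895917 to 136898803. C3 (ENSMUSG00000024164, 57203970 to 57228136), C4b (ENSMUSG00000073418, 34728380 to 34743882) and Cfb (ENSMUSG00000090231, 34856374 to 34862518) lie on the minus strand of chromosome 17. C3ar1 (ENSMUSG00000040552) spans 122847138 to 122856161 on chromosome 6, minus strand, C5ar1 (ENSMUSG00000049130) spans 16246743 to 16259540 on chromosome 7, minus strand, and Itgam (ENSMUSG00000030786) spans 128062640 to 128118491 on chromosome 7, plus strand. All 9 are protein-coding, with 2 merged exons in C3ar1, 3 in each C1q gene and in C5ar1, and 42 in C3.

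RefSeq (GRCm38.p6) gave the sequence around the start site for 6 of the 9 genes. The 250 bases before the start are shown for an abundant C1q chain, for the component that differed most with the transgenes and for the gene of the selection marker, with motif matches in capitals. C1qb is at chr4:136886201-136886450 (minus strand), C3 at chr17:57228137-57228386 (minus strand) and Itgam at chr7:128062390-128062639 (plus strand).
C1qb: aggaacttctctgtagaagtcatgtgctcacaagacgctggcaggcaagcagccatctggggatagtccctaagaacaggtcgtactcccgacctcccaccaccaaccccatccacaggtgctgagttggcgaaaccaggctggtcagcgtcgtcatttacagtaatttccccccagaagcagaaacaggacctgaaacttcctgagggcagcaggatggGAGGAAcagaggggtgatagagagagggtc
C3: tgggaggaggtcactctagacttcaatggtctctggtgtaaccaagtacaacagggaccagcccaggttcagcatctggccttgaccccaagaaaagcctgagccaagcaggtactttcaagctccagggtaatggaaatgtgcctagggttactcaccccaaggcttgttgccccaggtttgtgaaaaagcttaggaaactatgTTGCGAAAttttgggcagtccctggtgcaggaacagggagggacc
Itgam: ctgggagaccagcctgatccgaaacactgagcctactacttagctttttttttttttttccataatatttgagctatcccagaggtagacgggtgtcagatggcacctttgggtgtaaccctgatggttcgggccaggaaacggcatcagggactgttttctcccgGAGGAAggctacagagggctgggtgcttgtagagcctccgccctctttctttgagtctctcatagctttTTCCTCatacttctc
Windows of 300 bases (250 before and 50 after the start) were searched on both strands for GAGGAA, the core letters bound by the myeloid factor PU.1, TTGCNNAA (C/EBP), the interferon response element and TTCNNNGAA (STAT). GAGGAA or its reverse began 30 bases before the start of C1qb, 193 before that of C1qc, and 84 and 15 before that of Itgam with a further match after it, and 28.3% of 32851 promoters hold a match. TTGCNNAA began 45 bases before the start of C3 and is in 10.8% of promoters. The windows of C3ar1 and C5ar1 held none of the 4 motifs, and no window held the interferon element (3.44% of promoters) or the STAT letters (8.3%). A match is a string of letters and not a shown binding site.

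The transgene comparison asks how the genes differ between mice with and without APPPS1, once with Nlrp3 (APPPS1 minus WT) and once without it (APPPS1_NLRP3 minus NLRP3). Each comparison has its own control libraries. Where groups are said here or below to overlap or not, the share of all genes without overlap was not computed. C3ar1 passed the test in 3 of the 8 comparisons, C3 in 2, and C1qa and C1qb in 1 each, all higher with the transgenes and all at 6 or 12 months. C1qc, C4b, C5ar1, Cfb and Itgam passed in none of the 8 by edgeR. At 4 months no member was called by edgeR (adjusted p under 0.05 over all genes) in either comparison, where 0.0251% and 0.0101% of all genes were called, and 0 and 1 member (C5ar1) had an unadjusted p under 0.05. At 6 months, with 3.1% of genes called, no member was called in APPPS1 minus WT and 1 (C3) had an unadjusted p under 0.05. In APPPS1_NLRP3 minus NLRP3 at 6 months 2 of 9 were called, both higher, against 8.19% of genes. At 12 months 4 of 9 were called in APPPS1 minus WT, all higher, against 18.4% of genes, and 1 of 9 in APPPS1_NLRP3 minus NLRP3, higher, against 8.91%. In the tagged set no member was called by edgeR in either comparison, against 5.13% and 5.26% of genes, with 3 members under an unadjusted 0.05 in each. DESeq2 called none where edgeR called none, except 2 in the tagged comparison without Nlrp3. In APPPS1 minus WT at 12 months it called 6 of 9, more than the 4 by edgeR. The median log2 difference over the 9 genes was 0.68 in APPPS1 minus WT at 12 months, where the median of all genes was -0.07.

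**Figure D1:**
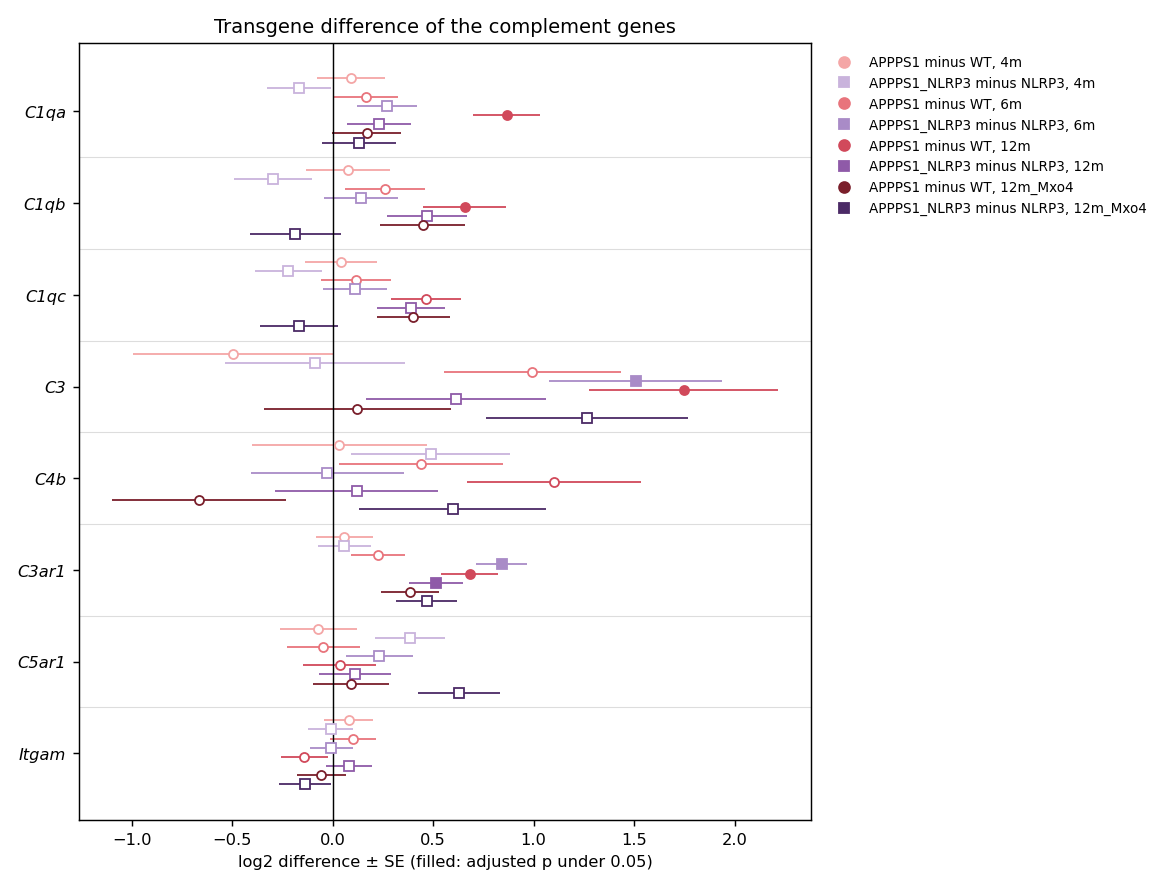
Log2 difference with its SE (x axis) for 8 complement genes in the 8 transgene comparisons (Cfb is left out because its counts are near 0); filled symbols passed an adjusted p under 0.05 and open symbols did not. C3ar1 is filled in 3 comparisons and C3 in 2, whereas Itgam stays between -0.14 and 0.10 with no filled symbol.

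C1qa, which encodes the A chain, rose with the transgenes at 12 months in mice with Nlrp3. WT_12m libraries held 1863, 2003 and 2096 CPM, and APPPS1_12m libraries held 2365, 2647, 2804, 5002 and 5079 CPM. Every APPPS1_12m library lay above every WT_12m library, and replicates 35 and 41 stood far above the other 3. Replicates 35 and 41 have the lowest TMM factors of all libraries (0.8117 and 0.7596, against 1.014 to 1.055 in WT_12m), which raises their CPM. Replicate 41 has 6187249 counts and the highest sum of microglial markers of all libraries (57500 CPM). The part of these traits in the C1q levels was not tested. The log2 difference was 0.87 ± 0.17 (SE; edgeR adjusted p = 0.000121), and it was 0.23 ± 0.16 (edgeR adjusted p = 0.418) in APPPS1_NLRP3 minus NLRP3. Leaving out any 1 library kept it between 0.72 and 0.97 and called. The titles carry further numbers of unstated meaning, and the second of them enters the fit as a term. WT_12m has 1 library whose second number is 1 (replicate 40), so each value within number 1 of APPPS1 minus WT at 12 months rests on 1 control, assumed to vary like the other libraries. Within number 1 the C1qa difference was 0.48 (edgeR adjusted p = 0.255), and within number 2 it was 1.28 (edgeR adjusted p = 8.4e-05).

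C1qb, the B chain, held 3087, 3893 and 4497 CPM in WT_12m and 4056, 5695, 5753, 6501 and 7493 CPM in APPPS1_12m. Here 4 of the 5 APPPS1_12m libraries lay above all WT_12m libraries and replicate 37 lay inside their range. The log2 difference of 0.66 ± 0.21 (edgeR adjusted p = 0.0192) no longer passed without WT_12m replicate 34 or APPPS1_12m replicate 41, where the largest adjusted p was 0.153. Within second title numbers 1 and 2 it was 0.40 and 0.87 (edgeR adjusted p = 0.712 and 0.00398). C1qc, the C chain, held 2381, 2876 and 3474 CPM in WT_12m and 2893, 3729, 3900, 4550 and 4590 CPM in APPPS1_12m. These groups overlapped too, and the log2 difference of 0.47 ± 0.17 missed the threshold (edgeR adjusted p = 0.0558). At 4 months the WT libraries were tightly packed, with means of 1838 ± 41.8 CPM for C1qa, 3678 ± 131 CPM for C1qb and 2812 ± 94.6 CPM for C1qc (SD, n = 4), and the APPPS1 means were 1934 ± 254, 3817 ± 522 and 2859 ± 322 CPM (SD, n = 3).

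**Figure D2:**
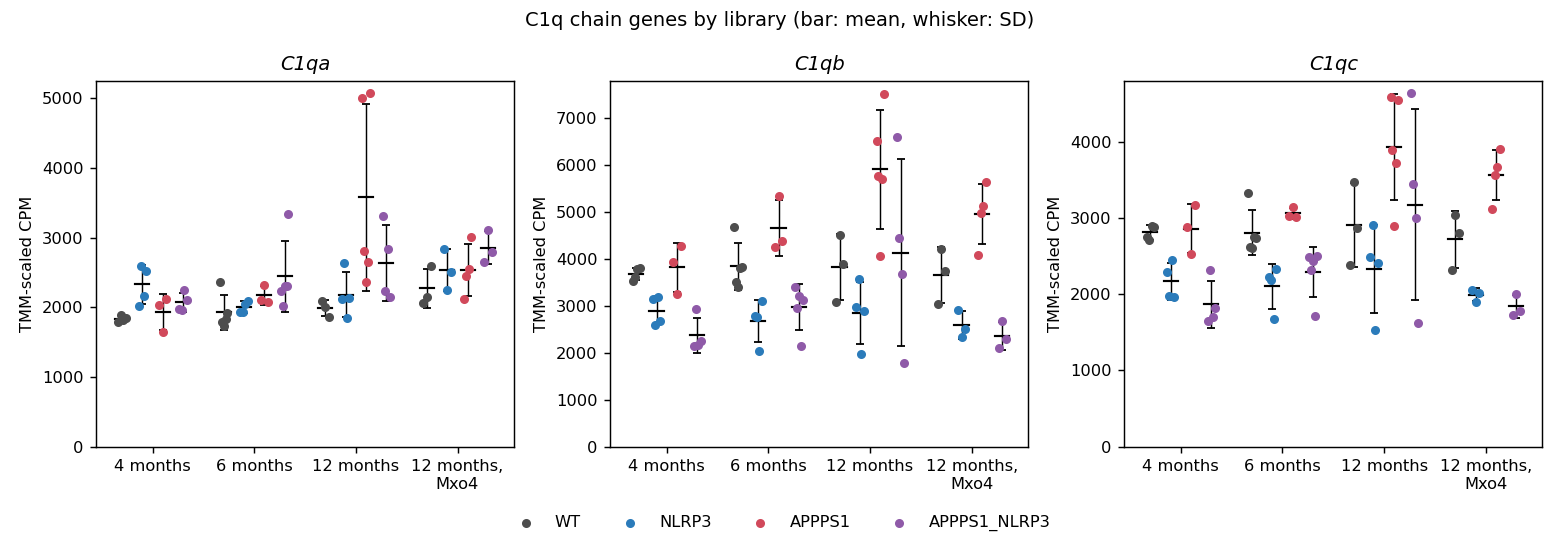
Level of C1qa, C1qb and C1qc in each library (y axis, TMM-scaled CPM) by age and genotype, with the group mean and SD. APPPS1_12m has the highest mean of each gene (3579, 5900 and 3932 CPM), and for C1qb and C1qc the lowest mean is that of APPPS1_NLRP3_12m_Mxo4 (2353 and 1840 CPM).

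C3, the central component of the cascade, had group means of 2.594 to 3.068 CPM in mice without transgenes at 4 and 6 months, and it rose with the transgenes at 6 months without Nlrp3 and at 12 months with Nlrp3. At 6 months NLRP3 libraries held 1.685, 2.482, 2.718 and 3.49 CPM, and APPPS1_NLRP3 libraries held 3.527, 6.739, 7.368, 7.873 and 10.61 CPM. All 5 transgenic libraries lay above all 4 controls, with replicate 28 just above them. The log2 difference was 1.51 ± 0.43 (edgeR adjusted p = 0.0177), and it was lost without NLRP3_6m replicate 32 or APPPS1_NLRP3_6m replicate 29, where the largest adjusted p was 0.093. Within the second title number it was 1.55 and 1.41 (edgeR adjusted p = 0.2 and 0.087). In APPPS1 minus WT at 6 months, with replicate 21 left out, it was 0.99 ± 0.44 (edgeR adjusted p = 0.218).

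At 12 months WT libraries held 2.766, 3.973 and 8.526 CPM of C3, and APPPS1 libraries held 6.598, 10.12, 12.27, 19.15 and 41.11 CPM. The groups overlapped at their edges, and replicate 38 alone held more than the next library by a wide margin. The log2 difference was 1.75 ± 0.47 (edgeR adjusted p = 0.00552). Replicate 38 also held 2690 CPM of neutrophil markers and 414 CPM of monocyte markers, where the other 4 APPPS1_12m libraries held at most 184 and 142 CPM, and the part of these cells in the C3 level was not tested. Without that library the difference was 1.23 (edgeR adjusted p = 0.0439), and without WT_12m replicate 34 its adjusted p was 0.0542. Within second title numbers 1 and 2 it was 1.45 and 1.5 (edgeR adjusted p = 0.424 and 0.0248). The 7 markers of border-associated macrophages summed to 289 to 496 CPM in APPPS1_12m and 501 to 835 CPM in WT_12m. In APPPS1_NLRP3 minus NLRP3 at 12 months C3 differed by 0.61 ± 0.45 (edgeR adjusted p = 0.456).

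C4b, which encodes the C4 protein cleaved by the C1 complex, varied widely among the libraries of APPPS1_12m. APPPS1_12m libraries held 12.34, 25.6, 25.79, 126.4 and 144.7 CPM, and WT_12m libraries held 16.47, 32.61 and 36.28 CPM. Replicates 37 and 38 carried the whole excess, and the other 3 libraries lay at or below the WT range. The log2 difference of 1.103 ± 0.433 did not pass (edgeR adjusted p = 0.0674) and was 0.66 (edgeR adjusted p = 0.282) without replicate 38. Astrocyte markers summed to 237 CPM in replicate 37 and 150 CPM in replicate 38, against 139 to 262 CPM in WT_12m. C4b group means otherwise lay between 23.11 CPM in APPPS1_12m_Mxo4 and 53.5 CPM in APPPS1_NLRP3_4m.

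Cfb was at the floor of detection in all groups, with 0 to 13 counts per library (median 5) and 0 to 0.843 CPM. No fold is given for it, and no comparison called it. APPPS1_12m replicates 37 and 38 had 12 and 13 counts, and replicate 41 of the same group had 0.

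**Figure D3:**
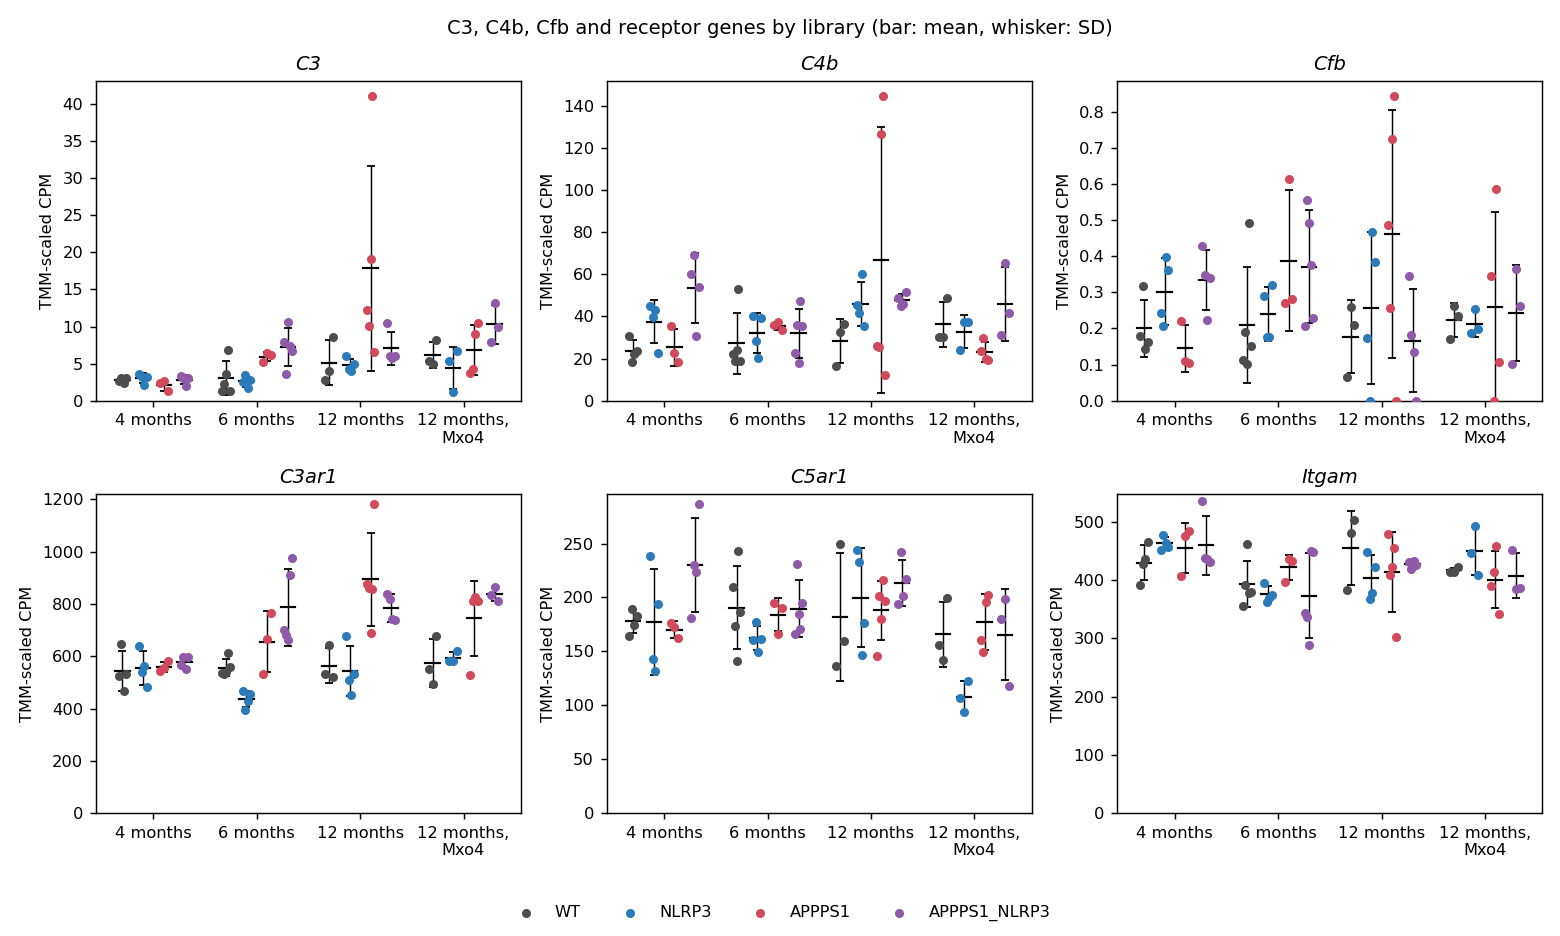
Level of C3, C4b, Cfb, C3ar1, C5ar1 and Itgam in each library (y axis, TMM-scaled CPM, a separate scale for each gene) by age and genotype, with the group mean and SD. C3 and C4b have libraries of APPPS1_12m far above the rest (41.11 and 144.7 CPM), and C3ar1 separates transgenic from control libraries at 12 months without the tag while C5ar1 and Itgam do not.

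C3ar1, the receptor of C3a, passed the test in more transgene comparisons than any other member. At 6 months NLRP3 libraries held 396.1, 430.2, 456.4 and 467.2 CPM, and APPPS1_NLRP3 libraries held 662.3, 683.3, 701.9, 912.1 and 975.3 CPM. The groups were far apart, and the log2 difference of 0.84 ± 0.13 (edgeR adjusted p = 5.82e-06) stayed called without any 1 of the 9 libraries (0.77 to 0.91) and in all 10 alternative settings. Within the second title number it was 0.95 and 0.73 (edgeR adjusted p = 0.000873 and 0.00527). At the same age WT libraries held 533.7 to 612.9 CPM and APPPS1 libraries 534, 667.6 and 767.4 CPM, which overlap, for a difference of 0.22 ± 0.14 (edgeR adjusted p = 0.404). NLRP3_6m was the lowest group of all for C3ar1, at 437.5 ± 31.7 CPM (SD, n = 4), against 557.2 ± 32.9 CPM in WT_6m (SD, n = 5), and the test of whether the transgene difference depends on Nlrp3 gave 0.62 ± 0.19 (edgeR adjusted p = 0.323).

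At 12 months WT libraries held 521.5, 530.7 and 642.3 CPM of C3ar1 and APPPS1 libraries 691.1, 856.4, 863.3, 878.7 and 1183 CPM, with no overlap. The log2 difference was 0.68 ± 0.14 (edgeR adjusted p = 0.000265), and within second title numbers 1 and 2 it was 0.62 and 0.80 (edgeR adjusted p = 0.0803 and 0.000841). NLRP3_12m libraries held 453.9, 508.6, 531.9 and 677 CPM and APPPS1_NLRP3_12m libraries 737.9, 743, 819.1 and 839.7 CPM, again without overlap, and the difference was 0.51 ± 0.13 (edgeR adjusted p = 0.00777). Within second title numbers 1 and 2 the latter was 0.56 and 0.30 (edgeR adjusted p = 0.0252 and 0.565), where number 2 has 1 NLRP3_12m library (replicate 42). In the tagged set WT libraries held 495.6, 553.3 and 676.6 CPM and APPPS1 libraries 528.9, 812.3, 812.8 and 828 CPM. The low one is replicate 56, which lay inside the WT range, and the difference was 0.39 ± 0.14 (edgeR adjusted p = 0.113) with it and 0.54 (edgeR adjusted p = 0.00412) without it. Tagged NLRP3 libraries held 581.5, 583.4 and 619.2 CPM and tagged APPPS1_NLRP3 libraries 812.8, 834.9 and 866.2 CPM, for a difference of 0.47 ± 0.15 (edgeR adjusted p = 0.0611) between groups that did not overlap.

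C5ar1, a receptor of C5a, had transgene differences between -0.07 and 0.63 on the log2 scale, none called by edgeR. The largest was that of the tagged mice without Nlrp3 (0.63 ± 0.20, edgeR adjusted p = 0.059), where NLRP3 libraries held 94.29, 106.4 and 123 CPM and APPPS1_NLRP3 libraries held 117.9, 180.1 and 198.4 CPM. Those groups overlapped in 1 library of each. Itgam group means lay between 373.3 and 462.8 CPM.

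Whether the transgene difference depends on Nlrp3 was tested directly as the difference between the 2 transgene differences. No member was called by edgeR or by DESeq2 at 4, 6 or 12 months or in the tagged set, where 0%, 0.0201%, 0.00503% and 0% of all genes were called. With an unadjusted p under 0.05 there were 0, 1 (C3ar1), 2 (C1qa and Cfb) and 2 members (C1qb and C1qc). The estimates were wide for C3, at -1.13 ± 0.64 at 12 months and 1.14 ± 0.68 in the tagged set. So the calls of C1qa, C1qb and C3 in one comparison and not in the other are not a shown dependence on Nlrp3. At 12 months without the tag, libraries with Nlrp3 are all female and those without it all male. The test there, and the setting of the 2 transgene differences side by side, cannot tell Nlrp3 from sex.

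The Nlrp3 comparison asks how mice without Nlrp3 differ from mice with it, once without transgenes and once with them. Without transgenes (NLRP3 minus WT) no member was called by edgeR or DESeq2 at 4, 6 or 12 months or in the tagged set, against 0.372%, 0.468%, 1.74% and 0.101% of all genes, and 2, 3, 0 and 3 members had an unadjusted p under 0.05. With transgenes (APPPS1_NLRP3 minus APPPS1) no member was called by edgeR at 4, 6 or 12 months, against 0.211%, 0.407% and 6.21% of genes, with 4, 2 and 5 members under an unadjusted 0.05. DESeq2 called 0, 0 and 3 there. In the tagged set 2 of 9 were called, both lower, against 0.292% of genes: C1qb and C1qc.

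In the tagged set C1qb held 4081, 4962, 5115 and 5640 CPM in APPPS1 libraries and 2103, 2284 and 2673 CPM in APPPS1_NLRP3 libraries. C1qc held 3117, 3572, 3677 and 3908 CPM in the first and 1729, 1787 and 2004 CPM in the second. Neither gene overlapped between the groups, and C1qa, between 2114 and 3013 CPM and between 2651 and 3117 CPM, did. The share of all genes without overlap between these groups was not computed. The log2 differences were -1.21 ± 0.23 for C1qb (edgeR adjusted p = 0.00233) and -1.08 ± 0.19 for C1qc (edgeR adjusted p = 0.00139), and 0.06 ± 0.18 for C1qa. Without replicate 56 they were -1.35 and -1.19 (edgeR adjusted p = 0.000817 and 0.000684), and without any other library they stayed called. All 3 tagged APPPS1_NLRP3 libraries have second title number 2, and of the tagged APPPS1 libraries replicate 56 alone does. Without replicate 56 the title number and Nlrp3 therefore coincide in this comparison, and they are told apart only through the term estimated over the other groups. These tagged groups hold both sexes, with 1 female and 3 males in APPPS1 and 2 females and 1 male in APPPS1_NLRP3.

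Elsewhere C1qb and C1qc had lower means without Nlrp3 but no call. At 4 months C1qb held 3531, 3605, 3771 and 3805 CPM in WT and 2594, 2675, 3136 and 3180 CPM in NLRP3, and C1qc 2716, 2746, 2885 and 2901 CPM in WT and 1958, 1980, 2297 and 2455 CPM in NLRP3. C1qa went the other way, with 1791, 1824, 1849 and 1890 CPM in WT and 2020, 2166, 2529 and 2601 CPM in NLRP3. None of the 3 genes overlapped between WT and NLRP3 at that age, in different directions, but the share of all genes without overlap was not computed. Their log2 differences were -0.34 ± 0.20, -0.37 ± 0.17 and 0.34 ± 0.16 (edgeR adjusted p = 0.637, 0.499 and 0.525). With transgenes at 4 months they were -0.71 ± 0.21, -0.64 ± 0.18 and 0.08 ± 0.17 (edgeR adjusted p = 0.216, 0.163 and 1).

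The contrast between the chains was also measured as the ratio of C1qb to C1qa within a library, computed per kilobase of exon, which is free of scaling between libraries. The ratio was chosen after the values were seen. It ran from 0.758 to 2.19 over 61 libraries. At 4 months it was 0.921 to 1.48 in the 8 libraries without Nlrp3 and 1.82 to 1.98 in the 7 with it. At 6 months it was 0.885 to 1.46 in 9 libraries and 1.87 to 2.19 in 8, and in the tagged set 0.758 to 0.99 in 6 and 1.37 to 1.94 in 7. In these 3 sets no library without Nlrp3 reached any library with it. At 12 months without the tag the ranges were 0.791 to 1.9 and 1.24 to 2.15 and overlapped.

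An exact two-sided permutation test of the log ratio, with labels exchanged within each transgene state, gave ratios without Nlrp3 over those with it of 0.598 at 4 months (p = 0.000816, adjusted 0.00196 over 12 tests of 3 ratios), 0.615 at 6 months (p = 0.000142, the smallest it can give, adjusted 0.000852), 0.752 at 12 months (p = 0.0463, adjusted 0.0617) and 0.517 in the tagged set (p = 0.00143, the smallest it can give, adjusted 0.00215). Without replicate 56 the last was 0.516 (exact permutation p = 0.005). Leaving out 1 library kept those at 4 months, 6 months and in the tagged set between 0.503 and 0.644, and that at 12 months between 0.706 and 0.825 (exact permutation p 0.0204 to 0.126). Within second title number 2 at 12 months the ratio was 1.05 (exact permutation p = 0.944), and within number 1 it was 0.562 (exact permutation p = 0.025). The permutations over both numbers did not hold the second title number fixed. In the tagged set most libraries without Nlrp3 have number 2 and most with it number 1, so the test there separates them poorly. The ratio of C1qc to C1qa gave 0.607, 0.691, 0.851 and 0.549 (exact permutation, adjusted p = 0.00196, 0.000852, 0.224 and 0.00215). The ratio of C1qb to C1qc lay between 1.95 and 3 in all libraries and gave 0.986, 0.889, 0.884 and 0.942 (exact permutation, adjusted p = 0.396, 0.00113, 0.00215 and 0.0788).

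**Figure D4:**
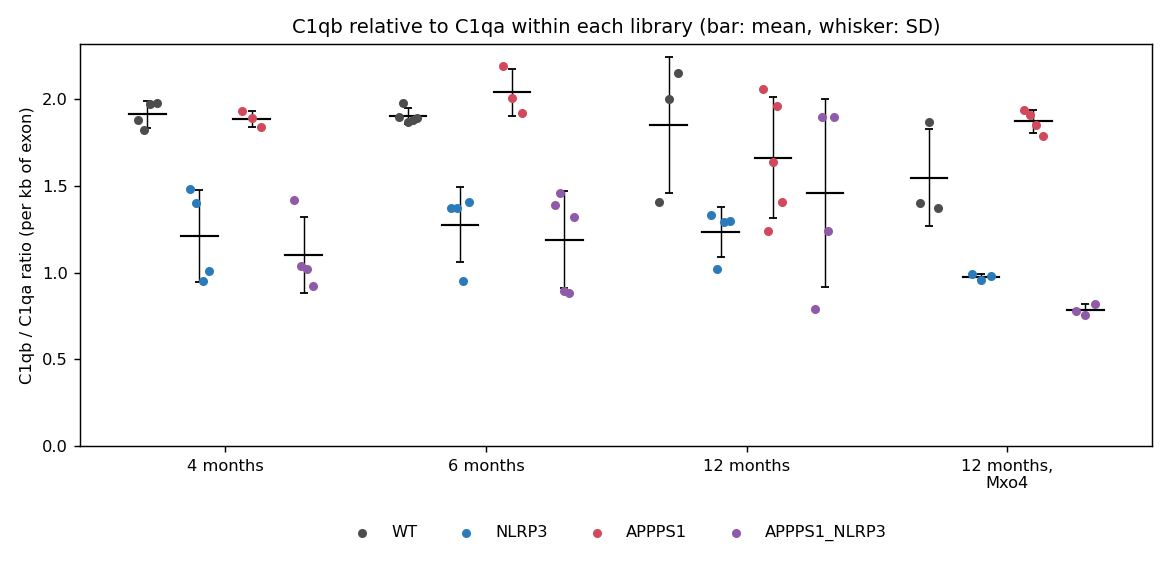
Ratio of C1qb to C1qa within each library (y axis, both genes per kilobase of exon), by age and genotype, with the group mean and SD. Libraries with Nlrp3 lie mostly near 1.9 and those without it at 0.758 to 1.48, except 2 APPPS1_NLRP3_12m libraries at 1.9 and several WT and APPPS1 libraries at 12 months between 1.24 and 1.64.

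Of the 31 libraries without Nlrp3, 16 had a ratio under 1.1, 13 lay between 1.1 and 1.7, and 2 lay above, which were APPPS1_NLRP3_12m replicates 43 and 44. Of the 30 with Nlrp3, 0, 6 and 24 did. The 6 were WT_12m replicate 34 (1.41), WT_12m_Mxo4 replicates 60 and 62 (1.40 and 1.37) and APPPS1_12m replicates 35, 37 and 41 (1.24, 1.64 and 1.41). Replicates 35 and 41 are the ones in which C1qa reached 5002 and 5079 CPM. The sexes overlapped among libraries lacking Nlrp3, where the ratio was 0.781 to 1.48 in 16 females and 0.758 to 1.9 in 15 males. The medians were 1.02 and 1.29, and the 2 libraries above 1.7 were male. Sex partly goes with age here, since the untagged libraries were female at 4 months and male at 12. A difference by sex was not tested.

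Of 14732 genes compared over the 61 libraries, the 20 whose level followed this ratio most closely, in either direction, included 15 on chromosome 4, which holds 6.18% of the genes compared. Of them 13 lay within 10 Mb of C1qa, between 132564067 and 139649690, among them Cep85, Nr0b2, Ptafr, Hp1bp3 and Rnf186, and Nlrp3 on chromosome 11 ranked 13. Cep85 was widely spread in untagged groups without Nlrp3, with 8.87 to 124 CPM in APPPS1_NLRP3_12m and 6.27 to 114 CPM in NLRP3_12m. APPPS1_12m held 61.3 to 146 CPM of it and WT_12m 146 to 162 CPM. With the tag, Cep85 held 118 to 208 CPM in APPPS1_12m_Mxo4 and 4.97 to 7.77 CPM in APPPS1_NLRP3_12m_Mxo4. Of the 184 genes tested within 5 Mb of the C1q cluster, 13 were called between those groups (7.07%, against 0.292% of all genes), and 4 between NLRP3 and WT at 4 months (2.17%, against 0.372%). Between APPPS1_NLRP3 and APPPS1 at 12 months the share near the cluster was 4.35%, under the 6.21% of all genes, and between tagged NLRP3 and WT it was 0%. The genes that followed the ratio were picked by it and carry no test, and the cause was not tested.

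The age comparison (12 months minus 4 months) asks how the genes change with age within a genotype. Without transgenes no member was called by edgeR or DESeq2 in WT or NLRP3, against 0.0302% and 0.518% of all genes, and no member had an unadjusted p under 0.05. In APPPS1 5 of 9 were called by edgeR, all higher, against 22.5% of genes, and in APPPS1_NLRP3 4 of 9, all higher, against 12.3%. DESeq2 called 6 and 4 members there. The median log2 difference over the 9 was 0.67 in APPPS1 and 0.34 in APPPS1_NLRP3, where the medians of all genes were -0.08 and -0.04. The NLRP3 and APPPS1_NLRP3 libraries were female at 4 months and male at 12, so age and sex cannot be told apart in those genotypes.

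C3 rose most in APPPS1, from 1.253, 2.422 and 2.596 CPM at 4 months to the 12-month values above, for a log2 difference of 3.10 ± 0.51 (edgeR adjusted p = 7.82e-06). No 4-month library reached any 12-month library, and the call held without any 1 library (2.57 to 3.30). Within second title number 1 the difference was 3.24 (edgeR adjusted p = 0.00126), and number 2 has 1 library at 4 months (replicate 6). In the same comparison 5 of 9 neutrophil markers (median log2 difference 2.56) and 3 of 7 monocyte markers (median 2.2) were called higher and 5 of 10 microglial markers lower, and their part in the C3 difference was not tested. C1qa rose by 0.86 ± 0.17, C3ar1 by 0.67 ± 0.14 and C1qb by 0.61 ± 0.21 (edgeR adjusted p = 0.000113, 0.00028 and 0.0248), of which C1qb lost its call without APPPS1_4m replicate 3 or 6 or APPPS1_12m replicate 41 (largest adjusted p 0.104). C4b rose by 1.38 ± 0.43 (edgeR adjusted p = 0.016), from 18.27, 22.42 and 35.32 CPM, but the call was lost without replicate 37 or 38 of APPPS1_12m or replicate 3 or 6 of APPPS1_4m. Without replicate 38 the C4b difference was 0.93 (edgeR adjusted p = 0.106).

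In APPPS1_NLRP3 the rising members were C1qb, C1qc, C3 and C3ar1. C1qb held 2152, 2166, 2243 and 2922 CPM at 4 months and 1777, 3681, 4449 and 6589 CPM at 12 months. The 12-month libraries were widely spread, with replicate 49 below every 4-month library and replicate 43 far above. Replicates 43 and 44 are also those with a C1qb to C1qa ratio of 1.9. Replicate 49 had a ratio of 0.791, and the 4-month libraries had 0.921 to 1.42. The part of this ratio in the C1qb and C1qc differences was not tested. The log2 differences were 0.78 ± 0.20 for C1qb and 0.75 ± 0.17 for C1qc (edgeR adjusted p = 0.00503 and 0.00143). Without replicate 43 they were 0.49 and 0.54 (edgeR adjusted p = 0.104 and 0.0331), and within second title number 1 they were 0.31 and 0.41 (edgeR adjusted p = 0.648 and 0.45). C3 rose by 1.36 ± 0.44 (edgeR adjusted p = 0.0331) from 1.962, 3.011, 3.061 and 3.313 CPM to 5.779, 6.017, 6.085 and 10.42 CPM, with no overlap, and lost its call in 5 of 8 leave-outs (adjusted p up to 0.172). C3ar1 rose by 0.44 ± 0.13 (edgeR adjusted p = 0.0203), also between groups that did not overlap, and its adjusted p was 0.0579 without replicate 43 and 0.0641 without APPPS1_NLRP3_4m replicate 13. In the same comparison 4 of 7 endothelial and 4 of 7 border-associated macrophage markers were called lower, and their part was not tested.

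The tag comparison (Mxo4 minus untagged at 12 months) was made because the labels set these libraries apart, though what the tag marks is not stated. In WT no member was called by edgeR or DESeq2, against 0.216% of genes, and none had an unadjusted p under 0.05. In NLRP3 1 of 9 was called, lower, against 6.8% of genes, in APPPS1 2 of 9, lower, against 6.66%, and in APPPS1_NLRP3 2 of 9, lower, against 1.09%. Immediate-early and dissociation genes (11 genes) summed to 20100 to 36600 CPM in tagged libraries of WT, NLRP3 and APPPS1_NLRP3 and to 6780 to 18300 CPM in their untagged ones, and to 14500 to 29200 and 13200 to 18400 CPM in APPPS1. Their part in the tag differences was not tested.

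The member called in NLRP3 was C5ar1, which held 146.7, 176.8, 232.5 and 243.8 CPM without the tag and 94.29, 106.4 and 123 CPM with it. The groups did not overlap, and the log2 difference was -0.87 ± 0.20 (edgeR adjusted p = 0.00746), with an adjusted p of 0.07 without tagged replicate 51. Untagged NLRP3_12m libraries are all male and the tagged ones are 1 female and 2 males, and the C5ar1 call held with a sex term. In APPPS1 C3 fell by 1.40 ± 0.41 (edgeR adjusted p = 0.0333) to 3.694, 4.324, 8.966 and 10.54 CPM, and C4b fell by 1.52 ± 0.40 (edgeR adjusted p = 0.0178) to 19.34, 19.85, 23.34 and 29.91 CPM. Both groups overlapped the untagged ones, and without untagged replicate 38 the differences were -0.87 and -1.06 (edgeR adjusted p = 0.179 and 0.0827). Without tagged replicate 56, C4b stayed called at -1.61 (edgeR adjusted p = 0.0325) and C3, at -1.22, did not (edgeR adjusted p = 0.121). The C3 call was also lost without untagged replicate 35 or tagged replicate 57, and the C4b call without tagged replicate 59. Untagged APPPS1_12m libraries are all female and the tagged ones are 1 female and 3 males, and with a sex term neither passed (-1.18 and -1.33, edgeR adjusted p = 0.16 and 0.109). In the same comparison 5 of 7 endothelial markers and 2 of 7 monocyte markers were called lower, and their part was not tested. In APPPS1_NLRP3 C1qb differed by -0.87 ± 0.22 and C1qc by -0.85 ± 0.19 (edgeR adjusted p = 0.0331 and 0.0172). Each lost its call in 5 of 7 leave-outs, among them untagged replicate 43 (-0.56 and -0.61, edgeR adjusted p = 0.155 and 0.0585) or 44 (-0.85 and -0.82, edgeR adjusted p = 0.102 and 0.0662). Untagged replicates 43 and 44 are those with a C1qb to C1qa ratio of 1.9, whose part here was not tested. Untagged APPPS1_NLRP3_12m libraries are all male and the tagged ones are 2 females and 1 male. With a sex term C1qb did not pass (edgeR adjusted p = 0.0743) and C1qc did.

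A wider list of 47 complement genes was read beside the 9, and 29 of them passed the filter. The lytic components were nearly silent, with 1 of 7 passing (C8g), and 5 of 9 genes of the lectin branch passed. Among its more abundant genes were Itgb2 (median 412 CPM), the beta chain that pairs with CD11b, and Csmd3 (median 193 CPM). With the transgenes, no gene of the list was called at 4 months. At 6 months 4 of 29 rose in APPPS1 minus WT (3.1% of all genes called), and 4 rose and 2 fell in APPPS1_NLRP3 minus NLRP3 (8.19%). At 12 months 5 rose and 2 fell in the first (18.4%) and 4 rose and 1 fell in the second (8.91%). In the tagged set 2 rose and 1 fell in the first (5.13%) and 2 rose in the second (5.26%). The last count and that of APPPS1 minus WT at 12 months are near the share of all genes. None of these counts was tested against that share.

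Itgax, which encodes CD11c, the alpha chain of complement receptor 4, rose most. Its level was 10.9 ± 1.95 CPM in WT_6m (SD, n = 5) and 100 ± 21.1 CPM in APPPS1_6m (SD, n = 3), and 13.2 ± 5.82 CPM in WT_12m (SD, n = 3) and 205 ± 71.8 CPM in APPPS1_12m (SD, n = 5). The log2 differences were 3.21 ± 0.43 and 3.94 ± 0.51 (edgeR adjusted p = 1.09e-06 and 1.1e-07), and 3.60 ± 0.45 and 4.13 ± 0.48 without Nlrp3. Masp1, a protease of the lectin branch, rose at the same ages, from 15.9 ± 1.08 CPM in WT_12m (SD, n = 3) to 48.2 ± 9.34 CPM in APPPS1_12m (SD, n = 5), by 1.56 ± 0.26 (edgeR adjusted p = 1.29e-05). Neither group pair of either gene overlapped at 6 or 12 months. In the tagged APPPS1 set replicate 56 held 10.5 CPM of Itgax and 10.3 CPM of Masp1, below the tagged WT means of 22.9 and 15.3 CPM, and both genes were called with it (3.32 and 1.47) and without it (3.75 and 1.82).

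Itgb2 rose by 0.43 to 0.75 in the 4 comparisons at 6 and 12 months, each called by edgeR, though the call in APPPS1 minus WT at 6 months was lost in 2 of 8 leave-outs, while Itgam, its partner, did not pass in any. In APPPS1 minus WT at 12 months C1qbp (0.50), Cr1l (0.32), Masp2 (-1.01) and Csmd3 (-0.54) were called too, of which Cr1l lost its call in 3 of 8 leave-outs and 5 of 10 alternative settings and Masp2 in 2 of 8 and 3 of 10. The direct test of dependence on Nlrp3 called none of the 29 by edgeR. Vtn, the gene of the lysis inhibitor vitronectin, fell by 1.27 and 1.37 at 6 and 12 months without Nlrp3, and Cd93 fell by 0.85 at 6 months without Nlrp3 and by 1.18 in tagged APPPS1 minus WT (-1.46 without replicate 56). The Vtn calls were lost in 2 of 9 and 4 of 8 leave-outs, and the Cd93 calls in 5 of 9 and 3 of 7. In APPPS1_NLRP3 minus NLRP3, 2 of 7 endothelial and 2 of 6 fibroblast markers were called lower at 6 months, and 1 of each at 12 months, and their part was not tested.

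**Figure D5:**
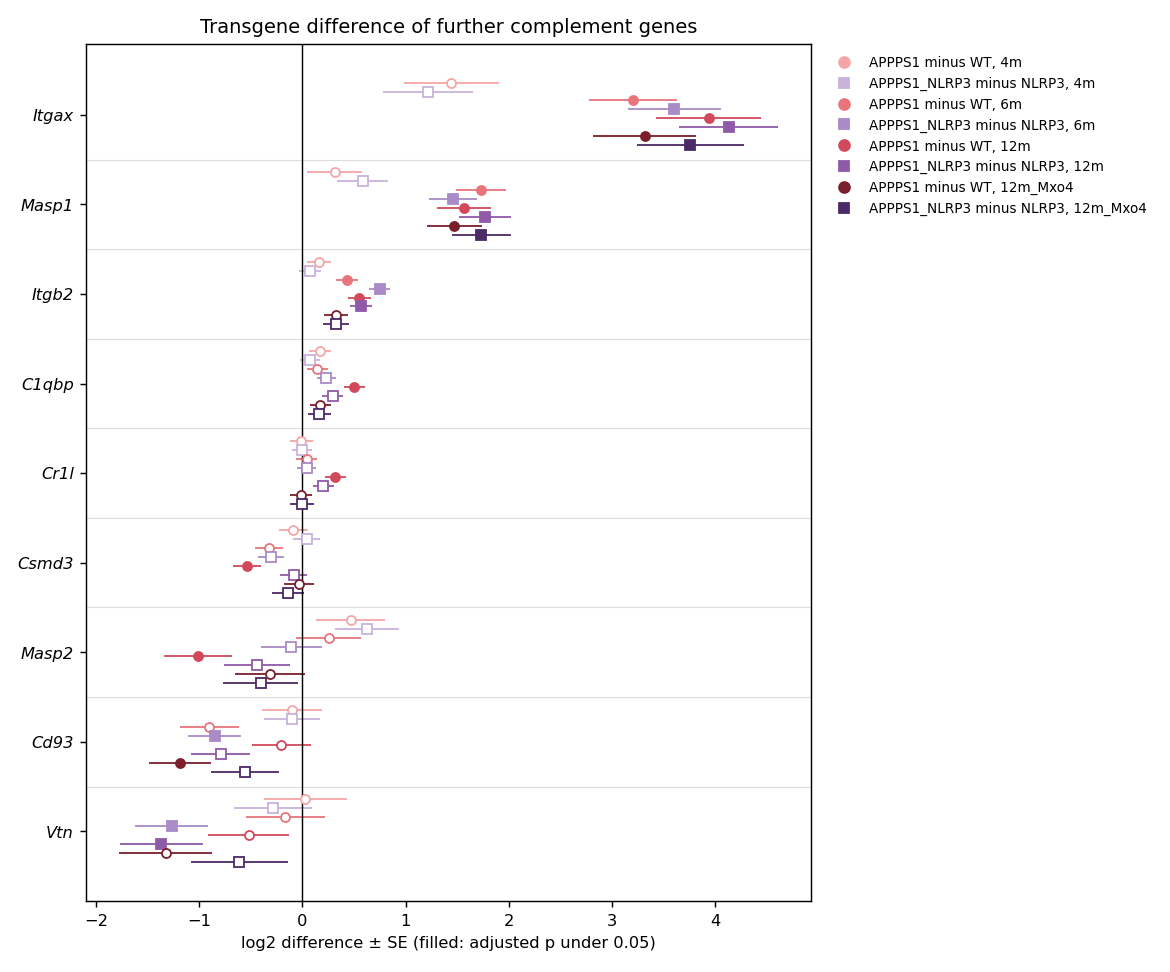
Log2 difference with its SE (x axis) in the 8 transgene comparisons for 9 genes of the wider list, each called in at least 1 of them; filled symbols passed an adjusted p under 0.05. Itgax and Masp1 are filled in all 6 comparisons at 6 and 12 months and in the tagged set, and open at 4 months.

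With loss of Nlrp3 the wider list showed 1 recurring gene, Colec12, a scavenger receptor with a collectin domain. It held 16.5 ± 6.16 CPM in WT_4m and 76.4 ± 27.9 CPM in NLRP3_4m (SD, n = 4 each), with no overlap. The log2 difference in NLRP3 minus WT was 2.22 ± 0.54 at 4 months, 2.19 ± 0.50 at 6 months and 2.47 ± 0.63 at 12 months (edgeR adjusted p = 0.0452, 0.0262 and 0.028), and in APPPS1_NLRP3 minus APPPS1 it was 2.78 ± 0.60 at 6 months and 1.86 ± 0.50 at 12 months (edgeR adjusted p = 0.014 and 0.02). The calls are marginal, since that at 4 months was lost in 7 of 8 leave-outs. In the last comparison C5ar2 (0.65) and Vsig4 (2.29) were also higher and Vtn lower (-1.51), where sex cannot be told apart from Nlrp3. Vsig4 lost its call in 6 of 9 leave-outs and Vtn in 2 of 9, and 4 of 7 endothelial markers were called lower there, whose part was not tested. In the tagged set none of the 29 was called by edgeR in either Nlrp3 comparison.

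Across the 16 group means of log2(CPM + 1), C1qb and C1qc moved together (Pearson r = 0.988), whereas C1qa was close to C3 (r = 0.885) and not to C1qb (r = 0.248), and C3 was close to C3ar1 (r = 0.867). Among 10036 other genes, the closest to C1qb were Sh3bgrl3 (r = 0.92) and Ubxn11 (r = 0.91), which also headed the list for C1qc (r = 0.936 and 0.931). Both lie within 5 Mb of the C1q cluster, and both were called lower in tagged APPPS1_NLRP3 minus APPPS1 (log2 difference -1.03 each). The closest to C1qa was Tmem258 (r = 0.965), to C3 Prelid2 (r = 0.955) and to C3ar1 Cand2 (r = 0.977). For C4b it was Zfp961 (r = 0.885) and for C5ar1 Rab11fip4 (r = 0.76). These are descriptions over 16 points that share libraries and depth, with the highest taken from many genes.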

How the data were processed

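The deposited values were raw gene counts in 1 matrix for 62 libraries, from which CPM and RPKM were computed here. Per the labels' protocols, 10 ng of input was amplified with SMART-Seq v4, libraries were made in 2 batches, and pools of 7 to 8 were read as 125 bp pairs. Trimmomatic, TopHat, HTSeq and mm10 are named in the submitters' processing notes; their versions, the annotation and the strand setting are not given in the sources used here. No molecular identifiers are mentioned, so depth speaks of counting error only.

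Gene identifiers were matched to GENCODE vM21 symbols (53620 of 53801). A single edgeR 4.0.16 model (quasi-likelihood F, R 4.3.3) covered 61 libraries of at least 100000 counts, with TMM size factors, filterByExpr (minimum count 10, total 15), the 16 groups as terms and the second title number as a covariate. A gene was called where its two-sided p, adjusted by Benjamini-Hochberg across the 19881 genes tested, was under 0.05. Standard errors are log2 differences divided by the root of F. RPKM used merged exon length. DESeq2 1.42.0, median-ratio size factors, no filter, other terms, the compared groups alone, single title numbers and leave-outs were alternatives. The fit was tested on simulated data.

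The 9 genes and the lists were chosen with earlier results of these data known. All 9 were described in every group and comparison. Of the wider list, genes called in a transgene or Nlrp3 comparison were named, except 1 that is counted but not reported here. Likeness took the highest Pearson r among genes of at least 5 CPM, excluding predicted genes and pseudogenes. The C1q ratios, their leave-outs and their splits by title number were chosen after the values were seen.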

Additional observations from a re-analysis of the deposited data

Results flagged for a closer look

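Of 100 groups of values examined (each of the 9 genes and the C1qb to C1qa ratio, in groups of 4 or 5 libraries), 12 had 1 library far from the rest of its group, where chance alone flags about 1 in 20. C1qa was 3342 CPM in APPPS1_NLRP3_6m replicate 31, against 2023 to 2314 CPM in the others. C1qb was 2922 CPM in APPPS1_NLRP3_4m replicate 11, against 2152 to 2243 CPM. C1qc was 1720 CPM in APPPS1_NLRP3_6m replicate 30, below 2315 to 2509 CPM, and 3327 CPM in WT_6m replicate 16, above 2612 to 2752 CPM.

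WT_6m replicate 19 was apart in 3 measures, with 52.87 CPM of C4b against 18.59 to 23.82 CPM, 0.4914 CPM of Cfb against 0.1001 to 0.1911 CPM, and a C1qb to C1qa ratio of 1.98 against 1.87 to 1.9. The ratio was also apart in NLRP3_6m replicate 32 (0.954 against 1.37 to 1.41) and NLRP3_12m replicate 47 (1.02 against 1.29 to 1.33). C3 was 10.42 CPM in APPPS1_NLRP3_12m replicate 43 against 5.779 to 6.085 CPM. C3ar1 was 528.9 CPM in APPPS1_12m_Mxo4 replicate 56 against 812.3 to 828 CPM. Itgam was 535.8 CPM in APPPS1_NLRP3_4m replicate 9 against 430.7 to 437.3 CPM.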

How the results depend on the processing

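No paired analysis was possible because every library has a replicate number of its own, and the title numbers that groups share entered as terms. Of 9 members, the number called without the filter on low counts was 2 in APPPS1 minus WT at 6 months and 2 in the tagged set, 3 and 4 in APPPS1_NLRP3 minus NLRP3 at 12 months and in the tagged set, 1, 2, 1 and 2 in NLRP3 minus WT at 4, 6 and 12 months and in the tagged set, 3, 1 and 4 in APPPS1_NLRP3 minus APPPS1 at 4, 6 and 12 months, and 1, 2 and 1 in the test of dependence on Nlrp3 at 6 and 12 months and in the tagged set. With DESeq2 it was 3 in APPPS1_NLRP3 minus APPPS1 at 12 months and 2 in tagged APPPS1_NLRP3 minus NLRP3, where median-ratio size factors also gave 2. With the compared groups alone it was 1 in the latter, 1 in NLRP3 minus WT at 4 months, 2 for age in APPPS1_NLRP3, and 0 for the tag in NLRP3, APPPS1 and APPPS1_NLRP3. With the first title number as a term it was 1 in APPPS1_NLRP3 minus NLRP3 at 6 months, 2 for age in APPPS1_NLRP3 and 1 for the tag in APPPS1 and in APPPS1_NLRP3. A sex term gave 0 and 1 for the tag in those 2 genotypes, and keeping the shallow library gave 1 in the second. Within second title numbers 1 and 2 it was 3 and 3 for age in APPPS1, 1 and 1 in APPPS1_NLRP3 minus NLRP3 at 6 months, and 0 and 0 for the tag in NLRP3. Within number 1 it was 0 in APPPS1 minus WT at 12 months, 1 in the tagged set, 0 for age in APPPS1_NLRP3 and 0 for the tag in APPPS1. Within number 2 it was 0 and 1 in APPPS1_NLRP3 minus NLRP3 at 12 months and in the tagged set, and 2 in APPPS1_NLRP3 minus APPPS1 at 12 months.

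Reversed within number 2 was C4b in APPPS1_NLRP3 minus APPPS1 at 12 months (1.26, edgeR adjusted p = 0.0495). Tagged APPPS1 has replicate 56 alone within number 2, so the opposite signs there of C4b for the tag (0.255) and of Itgax (-0.878) and Masp1 (-0.231) in tagged APPPS1 minus WT, 1 library against 1, restate that library. An arm of 1 library, assumed to vary like the rest, also stands in number 1 of APPPS1 minus WT at 12 months, number 2 of APPPS1_NLRP3 minus NLRP3 at 12 months and of age in APPPS1, and both numbers of the tag in NLRP3. The C1qb to C1qa ratio at 12 months reversed there too (1.05), and with few arrangements it missed the threshold at 4 months (0.592 and 0.601), at 6 months within number 1 (0.591) and in the tagged set within number 2 (0.542). Apart from fewer libraries within a title number, the cause was not tested.

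Leaving out 1 library gave 3 to 5 members for age in APPPS1 and 1 to 4 in APPPS1_NLRP3, 2 to 5 in APPPS1 minus WT at 12 months and 0 to 1 in the tagged set, 1 to 2, 1 to 3 and 0 to 1 in APPPS1_NLRP3 minus NLRP3 at 6 and 12 months and in the tagged set, 0 to 4 and 2 to 2 in APPPS1_NLRP3 minus APPPS1 at 12 months and in the tagged set, and 0 to 1, 1 to 3 and 0 to 2 for the tag in NLRP3, APPPS1 and APPPS1_NLRP3. All other comparisons stayed at 0 by edgeR. The ratio stayed within 0.572 to 0.621, 0.597 to 0.644, 0.706 to 0.825 and 0.503 to 0.543 at 4, 6 and 12 months and in the tagged set. Groups of 3 to 5 libraries limit every test, and Cfb was too shallow for any fold.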
